A study of Mus musculus with 9 samples.

Results

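Amino acid transporter genes were examined by bulk RNA-seq in cultured mouse cells that stand for 3 states of the post-implantation epiblast. The genes are the 52 of 23453 rows of the count table whose symbols belong to the solute carrier (Slc) families 1, 3, 6, 7, 36, 38 and 43, with Slc7a11 and Slc38a4 left out. Naive ESCs (embryonic stem cells) were cultured for 48 h in N2B27 medium with 1% KSR (a serum replacement), Activin and Fgf2 to give epiblast-like cells (EpiLC). EpiLCs were then kept for a further 24 h in N2B27 basal medium to give anterior epiblast-like cells (aEpiLC), or with Activin and CHIR99021, a Wnt/β-catenin agonist, to give posterior epiblast-like cells (pEpiLC). The study's methods give KSR in the N2B27 of both later cultures, and its text calls the aEpiLC and pEpiLC wild-type. Each state had 3 replicate libraries, 9 in all, and no deletion or transgene is named for them. The labels do not say that replicates came from separate cultures, so p-values measure the spread between these libraries, which may be technical. The 2 later states differ from EpiLC in culture time as well as in medium, and the part of each cannot be told apart.

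Cells take up amino acids through membrane carriers that differ in what they move and in what drives them. Some are uniporters, some use the sodium or proton gradient, and others are obligate exchangers that swap one amino acid for another. Carriers of the heteromeric type are made of a heavy chain, mainly the Slc3a2 product (CD98hc, 4F2hc), which brings a light chain of family 7 to the cell surface. Mouse embryonic stem cells are known to depend on threonine, and amino acid supply is read inside the cell by the mTORC1 and GCN2-ATF4 pathways. Not every gene of these families carries an amino acid that proteins are built from. Slc6a8 carries creatine, Slc6a6 taurine, Slc6a11 and Slc6a13 GABA, Slc6a2, Slc6a3 and Slc6a4 monoamines, and Slc43a3 purine nucleobases.

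Total counts lay between 20560564 and 23417917 per library, and 3 counts, taken as the detection limit, corresponded to 0.130 to 0.143 CPM (counts scaled to library size and normalised for composition by TMM). Summed posterior markers (T, Mixl1, Eomes, Foxa2 and Nanog) were at 20.2 to 34.3 CPM in EpiLC and aEpiLC and at 760 to 2281 CPM in pEpiLC. Anterior markers (Sox2, Otx2, Pou3f1, Pax6 and Sox1) were at 422 to 474 CPM in aEpiLC, 350 to 376 CPM in EpiLC and 87.0 to 153 CPM in pEpiLC. Of these 5, 3 rose in aEpiLC and 5 fell in pEpiLC. Pou3f1 and Sox1 did not rise in aEpiLC, with means of 203 and 0.968 CPM there and 204 and 1.21 CPM in EpiLC. The 5 measured markers of extraembryonic endoderm, of 8 in that list, summed to at most 10.2 CPM, and the 6 measured fibroblast markers, of 8, to 21.5 to 24.4 CPM in EpiLC, 21.0 to 25.1 CPM in aEpiLC and 14.3 to 20.6 CPM in pEpiLC. Of the fibroblast markers, 2 of 6 tested rose and 2 fell in aEpiLC, and 1 of 5 rose and 3 fell in pEpiLC (1 and 4 of 6 without pEpiLC replicate 1), where 24.0% of all genes rose and 22.6% fell in aEpiLC and 22.8% rose and 21.4% fell in pEpiLC (26.6% and 26.0% without that library). The 4 markers of naive ESCs (Zfp42, Klf4, Esrrb and Tfcp2l1) summed to 28.8 to 32.3 CPM in EpiLC, 15.0 to 15.6 CPM in aEpiLC and 22.1 to 25.3 CPM in pEpiLC, and 2 fell in aEpiLC and 1 in pEpiLC. The 3 epiblast markers (Pou5f1, Fgf5 and Dnmt3b) summed to 3719 to 4039 CPM in EpiLC and 3424 to 3673 CPM in aEpiLC, and to 1700, 2841 and 2557 CPM in pEpiLC replicates 1, 2 and 3. In pEpiLC Dnmt3b fell by 1.09 ± 0.24 on the log2 scale (adjusted p = 0.00932) and Fgf5 rose by 1.00 ± 0.08 (adjusted p = 0.000151, edgeR). The part of any of these markers in the transporter changes was not tested. pEpiLC replicate 1 stood apart. It differed by more than 4-fold from replicates 2 and 3 in 152 and 157 genes, against 9 to 13 genes for every other pair of libraries of one state. Its posterior markers summed to 2281 CPM, against 771 and 760 CPM in pEpiLC replicates 2 and 3. Transporters with a mean of at least 5 CPM in a pair of libraries were compared at a limit of 1.5-fold. Between pEpiLC replicate 1 and replicates 2 and 3, 9 of 26 and 11 of 25 differed by more. Between replicates 2 and 3, 0 of 24 did. The share of all genes past this limit is not given. In bulk RNA, fewer cells of a kind and less RNA per cell cannot be told apart.

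Of the 52 genes, 40 passed the low-count filter in at least 1 of the 3 comparisons and 36 in all 3. Slc6a17 and Slc38a5 passed it in some comparisons only through the state where they were higher, and Slc6a5 only through EpiLC, so a change in these could be tested in 1 direction only and is a description. A gene is said to have risen or fallen at a Benjamini-Hochberg adjusted p below 0.05 in edgeR's quasi-likelihood test, with p adjusted over all genes tested. In aEpiLC against EpiLC, 11 of 38 tested transporters rose and 14 fell, which is 28.9% and 36.8%, where 24.0% of all genes tested rose and 22.6% fell. In pEpiLC against EpiLC, 8 of 40 rose and 10 fell, where 22.8% of all genes rose and 21.4% fell. Without pEpiLC replicate 1 these counts were 9 and 15, where 26.6% of all genes rose and 26.0% fell. Changes of at least 2-fold were called for 8 transporters in each of these comparisons (9 in pEpiLC without replicate 1), where 12.5% and 15.8% of all genes had one. Between pEpiLC and aEpiLC, 5 of 38 tested transporters were higher in pEpiLC and 2 lower, where 6.28% and 9.30% of all genes were, and 3 differed at least 2-fold, where 7.29% of all genes did. With those of the 3 genes left out that passed the filter through 1 state in the comparison, 10 of 36 rose and 13 fell in aEpiLC, 6 of 37 rose and 9 fell in pEpiLC, and 4 of 37 were higher and 2 lower in pEpiLC than in aEpiLC, while 6, 5 and 2 changed at least 2-fold. The median log2 fold change of the tested transporters was 0.06 in aEpiLC and -0.08 in pEpiLC against EpiLC and -0.18 between pEpiLC and aEpiLC, with 0.00, 0.02 and 0.01 over all genes.

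Of the 5 transporters with the highest mean level per length, Slc7a5, Slc3a2, Slc38a2 and Slc7a7 fell in both later states and Slc7a3 did not. The summed level of the 52 genes per kb of exon was 555, 537 and 544 CPM per kb in EpiLC replicates 1, 2 and 3. It was 374, 442 and 419 CPM per kb in the aEpiLC libraries and 290, 380 and 357 CPM per kb in the pEpiLC libraries. Every library of the later states was below every EpiLC library, while the ranges of aEpiLC and pEpiLC overlapped. These 5 genes made up 72.4% to 73.6% of the sum in EpiLC, 65.4% to 68.8% in aEpiLC and 56.7% to 64.2% in pEpiLC. The share of all counts that fell on the 52 genes was 0.270% to 0.281% in EpiLC, 0.208% to 0.237% in aEpiLC and 0.159% to 0.198% in pEpiLC. A set of 10 genes fell in both later states (Slc1a5, Slc3a2, Slc6a5, Slc6a9, Slc7a1, Slc7a5, Slc7a7, Slc38a2, Slc38a7 and Slc43a2) and 6 rose in both (among them Slc6a17, Slc7a14, Slc36a1, Slc36a4 and Slc43a1), of 38 tested in both comparisons, where 14.2% of all genes fell in both and 14.2% rose in both. The filter fixed the direction of Slc6a5 and Slc6a17 in these sets. Without pEpiLC replicate 1, 12 fell in both, Slc6a15 and Slc6a16 being added, and 6 rose in both, with Slc6a13 in place of Slc6a17, where 16.3% and 15.8% of all genes did. Both comparisons share their EpiLC libraries, so a change in one is not independent of the other.

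**Figure D1:**
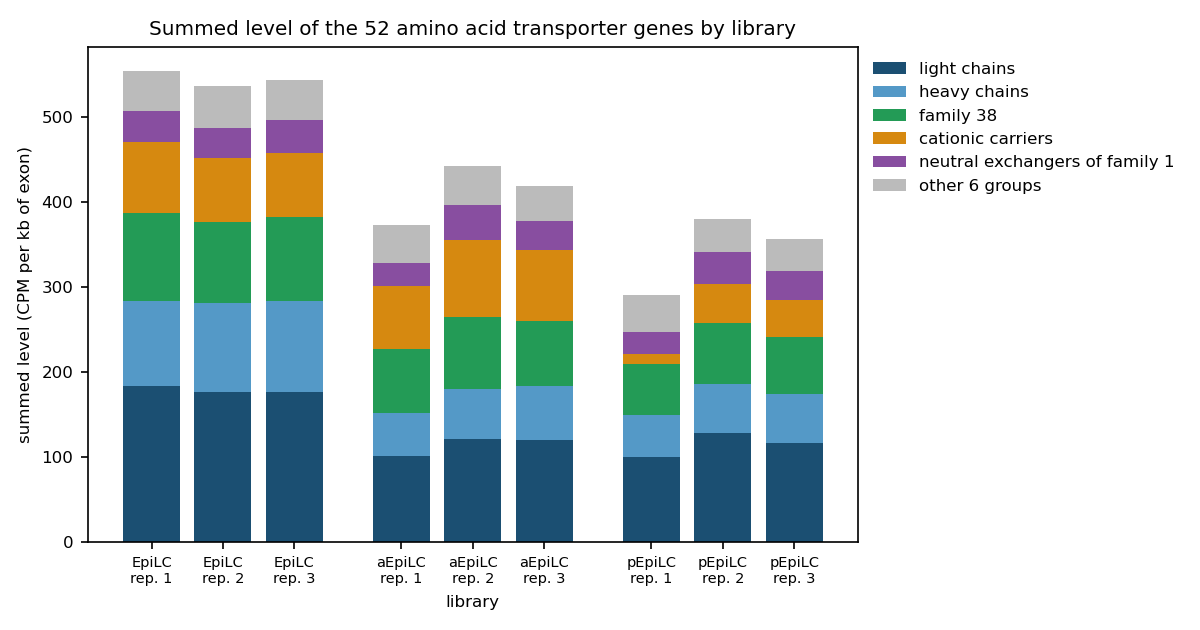
Summed level of the 52 transporter genes in each of the 9 libraries, in CPM per kb of exon, stacked by group of genes, with single libraries as bars and no error bars. The bars stand at 537 to 555 in EpiLC, 374 to 442 in aEpiLC and 290 to 380 in pEpiLC, and the segment of the cationic carriers is thinnest in pEpiLC replicate 1.

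The heavy chain Slc3a2 (chromosome 19, 8706882 to 8723369, minus strand, GRCm38) was at 351, 368 and 376 CPM in EpiLC, 178, 209 and 225 CPM in aEpiLC and 172, 202 and 202 CPM in pEpiLC. All EpiLC libraries lay above all others, and the 2 later states overlapped. Slc3a2 fell by a log2 fold change of 0.84 ± 0.08 (SE) in aEpiLC and of 0.91 ± 0.07 in pEpiLC (adjusted p = 1.94e-06 and 0.000196, edgeR), and between the later states its log2 fold change was -0.09 ± 0.10 (adjusted p = 0.617). The other heavy chain, Slc3a1, which pairs with the cystine carrier Slc7a9 in kidney and gut, passed the filter in no comparison and reached at most 0.429 CPM.

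Light chains did not move together. Slc7a5 (LAT1, chromosome 8, 121881150 to 121907694, minus strand), which imports leucine and other large neutral amino acids in exchange for glutamine, had 498, 464 and 439 CPM in EpiLC. It had 257, 319 and 315 CPM in aEpiLC and 207, 295 and 257 CPM in pEpiLC, below EpiLC in every library and overlapping between the later states. Slc7a5 fell by 0.65 ± 0.08 on the log2 scale in aEpiLC (adjusted p = 2.42e-05) and by 0.86 ± 0.12 in pEpiLC (adjusted p = 0.00146). The ratio of Slc7a5 to Slc3a2 per length overlapped between states, at 1.11 to 1.35 in EpiLC, 1.33 to 1.45 in aEpiLC and 1.15 to 1.39 in pEpiLC.

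The y+LAT light chains Slc7a7 and Slc7a6 exchange cationic amino acids such as arginine for neutral ones with sodium. Slc7a7 (y+LAT1, chromosome 14, 54369442 to 54417780, minus strand) had 130, 136 and 157 CPM in EpiLC, 65.7, 78.6 and 80.0 CPM in aEpiLC and 88.2, 116 and 113 CPM in pEpiLC. The 3 states did not overlap, with aEpiLC lowest and pEpiLC between. It fell by 0.91 ± 0.09 on the log2 scale in aEpiLC (adjusted p = 2.77e-06) and by 0.39 ± 0.12 in pEpiLC (adjusted p = 0.0305), the latter call being lost without EpiLC replicate 2 or 3. Slc7a6 (y+LAT2) went the other way, from 42.2, 44.0 and 43.1 CPM in EpiLC to 49.9, 47.4 and 46.3 CPM in aEpiLC and 77.4, 60.2 and 57.2 CPM in pEpiLC. It rose in pEpiLC by 0.61 ± 0.12 on the log2 scale (adjusted p = 0.00501) and had a log2 fold change of 0.15 ± 0.07 in aEpiLC (adjusted p = 0.0724). The level of Slc7a6 per length was 0.199 to 0.236 of that of Slc7a7 in EpiLC, 0.419 to 0.550 in aEpiLC and 0.367 to 0.636 in pEpiLC, with no overlap between EpiLC and the later states. Slc7a8 (LAT2), the other light chain tested, stayed at 2.90 to 5.71 CPM and passed the test in no comparison. Exons of Slc7a7 overlap those of Oxa1l on the opposite strand over 232 bases, and without stated strandedness reads there cannot be assigned with certainty. The same limit holds for other transporters, among them Slc43a2, Slc7a2 and Slc7a4. These overlap Gm45606, Gm26584 and P2rx6 on the opposite strand over 922, 635 and 554 bases.

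**Figure D2:**
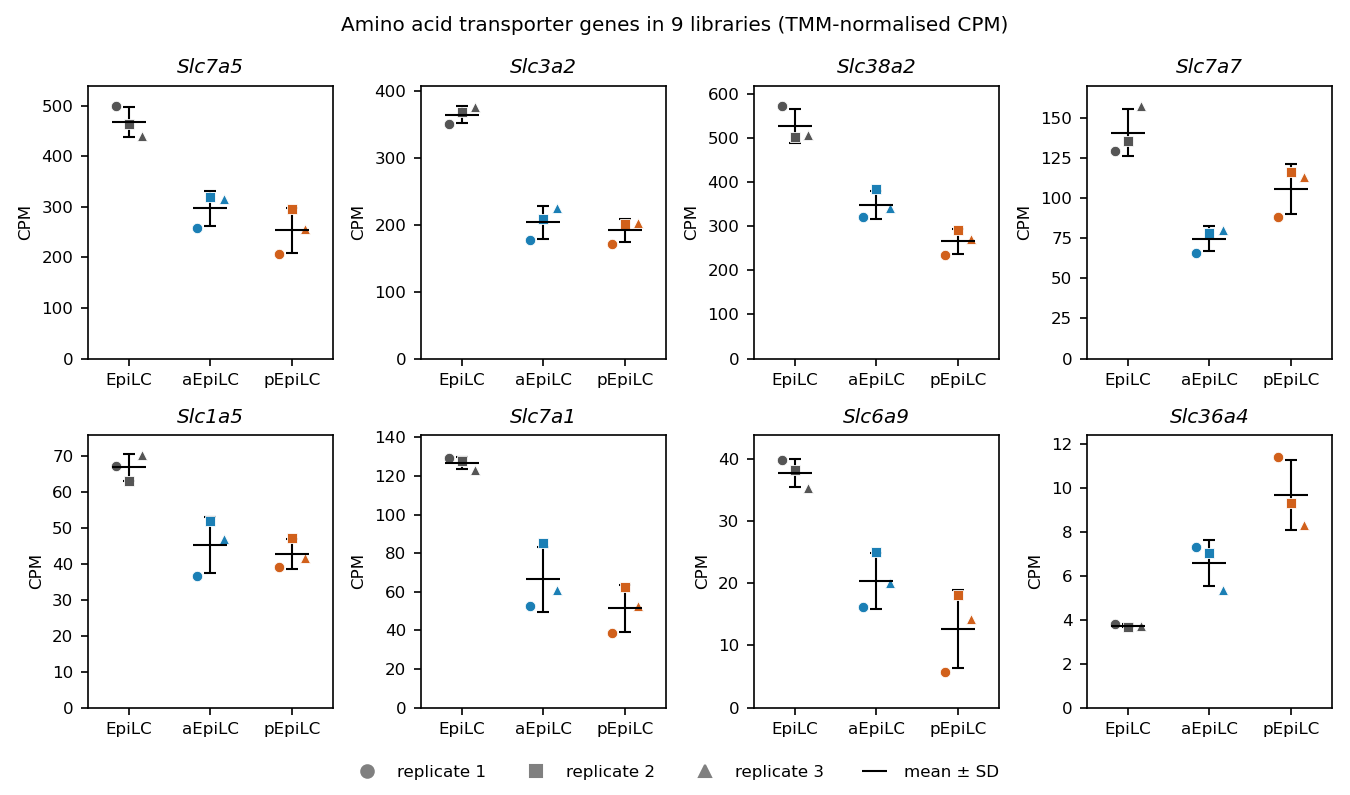
Levels of 8 transporter genes in CPM on linear axes that start at 0, one panel a gene, with 1 symbol for each replicate library and black lines for the mean ± SD (n = 3). The 7 genes that fell, such as Slc3a2 (351 to 376 CPM in EpiLC, 172 to 225 CPM in the later states), have all EpiLC libraries on top, and Slc36a4 has them at the bottom, at 3.68 to 3.82 CPM.

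The cationic carriers (CAT family) move arginine and lysine. Slc7a1 (CAT1, chromosome 5, 148327410 to 148399904, minus strand), the carrier found in most tissues, had 129, 128 and 123 CPM in EpiLC, 52.8, 85.4 and 60.9 CPM in aEpiLC and 38.6, 62.7 and 52.8 CPM in pEpiLC. EpiLC libraries were the highest without overlap. Slc7a1 fell by 0.93 ± 0.13 on the log2 scale in aEpiLC (adjusted p = 5.61e-05) and by 1.28 ± 0.15 in pEpiLC (adjusted p = 0.000818), a 2.43-fold lower level. Between pEpiLC and aEpiLC its log2 fold change was -0.37 ± 0.22 (adjusted p = 0.291), and with replicate number as a block it fell (adjusted p = 0.0372).

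Slc7a3 (CAT3, chromosome X, 101079210 to 101086020, minus strand), the CAT carrier otherwise known from brain and embryo, was the most abundant of this group. Its levels were 269, 241 and 241 CPM in EpiLC, 260, 311 and 292 CPM in aEpiLC and 25.8, 147 and 143 CPM in pEpiLC. All pEpiLC libraries were below all others, and replicate 1, in which posterior markers were highest, was far below the other 2. The part of those cells in the level of Slc7a3 was not tested. Against EpiLC, the log2 fold change in pEpiLC was -1.23 ± 0.53 (adjusted p = 0.0935), and against aEpiLC it was -1.45 ± 0.53 (adjusted p = 0.108). Without pEpiLC replicate 1, Slc7a3 fell in both comparisons, by 0.76 (adjusted p = 1.30e-07) and by 0.98 (adjusted p = 5.96e-06). Both calls were also gained with the likelihood ratio test and in 1 fit of all libraries. In aEpiLC Slc7a3 rose by 0.20 ± 0.07 (adjusted p = 0.0335), although 1 of the aEpiLC libraries lay within the EpiLC range. That call was lost with the replicate block, in 1 fit of all libraries and without EpiLC replicate 2 or 3 or aEpiLC replicate 2 or 3. The ratio of Slc7a3 to Slc7a1 per length was 5.76 to 6.34 in EpiLC, 11.1 to 15.0 in aEpiLC and 2.04, 7.15 and 8.24 in pEpiLC replicates 1, 2 and 3.

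Slc7a2 (CAT2), which was singled out after its values were seen, was a low-level carrier with 1.96, 2.88 and 3.08 CPM in EpiLC, 1.13, 1.08 and 0.920 CPM in aEpiLC and 7.49, 3.17 and 3.54 CPM in pEpiLC. It fell by 1.33 ± 0.27 in aEpiLC (adjusted p = 0.00125), and in pEpiLC all 3 libraries were above EpiLC without passing the test (log2 fold change 0.86 ± 0.37, adjusted p = 0.0924). Of the 2 relatives of the group, Slc7a14, a lysosomal membrane protein, rose by 1.85 ± 0.29 in aEpiLC and by 1.46 ± 0.32 in pEpiLC (adjusted p = 0.000155 and 0.00881), and its EpiLC libraries held 0.659 to 1.56 CPM. Slc7a4, for which no substrate is established, rose in aEpiLC by 0.68 ± 0.23 (adjusted p = 0.0275) and no longer passed without EpiLC replicate 2 or 3 or aEpiLC replicate 1 or 3.

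Slc1a5 (ASCT2, chromosome 7, 16781340 to 16798274, plus strand), a sodium-dependent exchanger of glutamine, serine, threonine and alanine, had 67.2, 62.9 and 70.2 CPM in EpiLC. Its levels were 36.6, 51.8 and 46.9 CPM in aEpiLC and 39.1, 47.2 and 41.5 CPM in pEpiLC, below EpiLC in each library. Slc1a5 fell by 0.56 ± 0.10 in aEpiLC and by 0.63 ± 0.09 in pEpiLC on the log2 scale (adjusted p = 0.000588 and 0.00146). Its sister Slc1a4 (ASCT1) was at 80.7 to 86.4 CPM in EpiLC, 70.9 to 110 CPM in aEpiLC and 64.8 to 103 CPM in pEpiLC, overlapping in all comparisons. It passed no test in these (log2 fold change 0.14 ± 0.12 in aEpiLC and 0.13 ± 0.16 in pEpiLC), but passed in pEpiLC without pEpiLC replicate 1 and in aEpiLC without aEpiLC replicate 1.

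In family 38, which holds sodium-coupled carriers of glutamine and other small neutral amino acids, 2 of 7 tested genes fell in aEpiLC, 2 of 8 fell in pEpiLC and 1, Slc38a5, rose there. Of all genes, 22.6% fell in aEpiLC, and 21.4% fell and 22.8% rose in pEpiLC. Slc38a2 (SNAT2, chromosome 15, 96687392 to 96699730, minus strand), a carrier whose own transcription is known to respond to amino acid supply, had 572, 503 and 509 CPM in EpiLC, 321, 384 and 341 CPM in aEpiLC and 236, 292 and 271 CPM in pEpiLC. The 3 states were stepped without overlap. Slc38a2 fell by 0.60 ± 0.07 in aEpiLC (adjusted p = 2.46e-05), by 0.96 ± 0.09 in pEpiLC (adjusted p = 0.000288) and by 0.39 ± 0.10 in pEpiLC against aEpiLC (adjusted p = 0.0378). Slc38a1 (SNAT1), which lies 44.5 kb from Slc38a2 on the same strand, was at 218 to 244 CPM in EpiLC and 233 to 258 CPM in aEpiLC. In pEpiLC it was at 134, 217 and 205 CPM, with a log2 fold change against EpiLC of -0.31 ± 0.16 (adjusted p = 0.157). The lysosomal carrier Slc38a7 fell by 0.49 ± 0.08 and 0.40 ± 0.08 in the 2 later states (adjusted p = 0.000222 and 0.00537). Slc38a9, the lysosomal arginine sensor of mTORC1, stayed at 19.0 to 30.6 CPM and Slc38a10 at 85.7 to 97.4 CPM over all libraries, and neither passed a test.

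Slc38a5 (SNAT5), a glutamine and serine carrier named after its values were seen, was listed at 0, 0.0471 and 0 CPM in EpiLC, within the detection limit. It had 0.328, 0.315 and 0.276 CPM in aEpiLC and 1.67, 1.74 and 0.781 CPM in pEpiLC. The mean in pEpiLC was at least 9.76-fold higher than 0.143 CPM, the highest level that 3 counts give in any of the 9 libraries. In pEpiLC against either other state it passed the low-count filter only through the pEpiLC libraries, so it could enter only as a rise, and its adjusted p of 0.000985 against EpiLC (edgeR) is given as a description. It did not pass the low-count filter in aEpiLC against EpiLC, and with no filter it rose there (adjusted p = 0.0110).

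Both tested carriers of the proton-coupled family 36 rose in both later states, where 24.0% of all genes rose in aEpiLC, 22.8% in pEpiLC and 14.2% in both. Slc36a4 (PAT4, chromosome 9, 15709738 to 15743361, plus strand), which carries proline and tryptophan, had 3.82, 3.68 and 3.74 CPM in EpiLC, 7.32, 7.06 and 5.38 CPM in aEpiLC and 11.4, 9.34 and 8.32 CPM in pEpiLC. The states did not overlap. Slc36a4 rose by 0.82 ± 0.17 in aEpiLC (adjusted p = 0.00142) and by 1.39 ± 0.17 in pEpiLC (adjusted p = 0.000795), a 2.63-fold higher level. Between the later states its log2 fold change was 0.56 ± 0.19 (adjusted p = 0.0854), and with replicate number as a block it rose (adjusted p = 0.0495). Slc36a1 (PAT1), which exports small amino acids from lysosomes, was at 9.23 to 10.3 CPM in EpiLC, 13.3 to 14.7 CPM in aEpiLC and 12.8 to 16.4 CPM in pEpiLC. It rose by 0.49 ± 0.11 and 0.55 ± 0.13 (adjusted p = 0.00276 and 0.0135), the call in pEpiLC being lost without EpiLC replicate 3.

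The uniporters of family 43 were split. Slc43a1 (LAT3), which carries branched-chain amino acids and phenylalanine, had 12.8 to 18.3 CPM in EpiLC, 22.99 to 26.0 CPM in aEpiLC and 20.7 to 26.6 CPM in pEpiLC. Slc43a2 (LAT4), a carrier with the same substrates and methionine, had 33.6 to 39.4 CPM in EpiLC, 26.1 to 28.3 CPM in aEpiLC and 20.3 to 24.3 CPM in pEpiLC. Slc43a1 rose by 0.64 ± 0.12 and 0.63 ± 0.16 (adjusted p = 0.000843 and 0.0145), the call in pEpiLC being lost without EpiLC replicate 2 or 3. Slc43a2 fell by 0.41 ± 0.08 and 0.65 ± 0.10 (adjusted p = 0.00138 and 0.00244). Slc43a3, which lies 73.0 kb from Slc43a1 on the same strand, passed no test and was at 8.96 to 15.1 CPM.

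In family 6, the sodium- and chloride-coupled carriers, 4 of the 5 tested genes of the group that holds the amino acid carriers and the orphan Slc6a16 fell in aEpiLC and 1 rose. Slc6a5 and Slc6a17, for which the filter fixed the direction, are among them. In pEpiLC 2 of 5 fell and 1 rose, and without pEpiLC replicate 1, 4 fell and 0 rose. The shares of all genes that fell were 22.6% in aEpiLC, 21.4% in pEpiLC and 26.0% in pEpiLC without that library. Slc6a9 (GLYT1, chromosome 4, 117834506 to 117875198, plus strand), which carries glycine, had 39.7, 38.2 and 35.3 CPM in EpiLC, 16.1, 25.1 and 20.0 CPM in aEpiLC and 5.67, 18.0 and 14.2 CPM in pEpiLC. EpiLC stood above the later states, which overlapped. Slc6a9 fell by 0.88 ± 0.13 in aEpiLC (adjusted p = 8.09e-05) and by 1.55 ± 0.35 in pEpiLC (adjusted p = 0.00938), a 2.93-fold lower level. Its exons overlap those of Ccdc24, Gm17114 and B4galt2 on the opposite strand, over 1429, 511 and 46 bases. Slc6a15, a carrier of branched-chain amino acids and proline, had 37.5 to 45.4 CPM in EpiLC and 23.3 to 29.2 CPM in aEpiLC, where it fell by 0.63 ± 0.10 (adjusted p = 0.000173). In pEpiLC it had 11.7, 26.0 and 30.6 CPM and a log2 fold change of -0.84 ± 0.30 (adjusted p = 0.0538). It fell there without pEpiLC replicate 1 or 3, with DESeq2, with the likelihood ratio test or with the replicate block. The same held with at least 10 counts in every library and in 1 fit of all libraries. The remaining tested genes of this group had at most 1.98 CPM in any library. Slc6a5 (GLYT2), a glycine carrier of inhibitory neurons, passed the filter through EpiLC alone and had log2 fold changes of -1.90 ± 0.48 and -2.92 ± 0.61 in the later states, the call of the former being lost without EpiLC replicate 3. Slc6a17, a synaptic vesicle carrier, passed the filter through the later states alone and had log2 fold changes of 2.18 ± 0.44 and 1.52 ± 0.50. Its call in pEpiLC no longer passed without EpiLC replicate 1, 2 or 3 or pEpiLC replicate 1 or 3, with DESeq2, with no filter or with the replicate block (adjusted p from 0.0538 to 0.124). Slc6a16, an orphan carrier, fell in aEpiLC by 1.47 ± 0.52 (adjusted p = 0.0325), and the test was not passed with DESeq2, in 1 fit of all libraries or without EpiLC replicate 1, 2 or 3 or aEpiLC replicate 1 or 3. It also fell in pEpiLC without pEpiLC replicate 1, by 1.31 (adjusted p = 0.0300).

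The GABA carriers Slc6a11 (GAT3) and Slc6a13 (GAT2) were low in EpiLC, at 0.560 to 1.08 CPM and 0.653 to 1.37 CPM. In aEpiLC, Slc6a13 had 3.38, 2.65 and 3.22 CPM and Slc6a11 had 1.60, 2.25 and 1.84 CPM, above every EpiLC library. Slc6a13 rose there by 1.67 ± 0.28 and Slc6a11 by 1.20 ± 0.32 (adjusted p = 0.000334 and 0.00723). In pEpiLC, Slc6a13 had 1.00, 2.56 and 1.52 CPM and a log2 fold change of 0.83 ± 0.43 (adjusted p = 0.150), and it rose there by 1.11 without pEpiLC replicate 1 (adjusted p = 0.0187). Slc6a11 had 0.620, 1.82 and 1.19 CPM in pEpiLC and a log2 fold change of 0.58 ± 0.44 (adjusted p = 0.321). The more abundant taurine carrier Slc6a6 (65.4 to 124 CPM) passed no test with all libraries, and fell in pEpiLC by 0.47 without pEpiLC replicate 1 (adjusted p = 6.77e-05), which was its highest library. The creatine carrier Slc6a8 fell in aEpiLC by 0.23 ± 0.07 (adjusted p = 0.0207), a call lost without EpiLC replicate 1, 2 or 3 or aEpiLC replicate 2.

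Of the glutamate carriers, Slc1a3 (GLAST, EAAT1) was the only gene above 2 CPM. It had 34.7, 36.2 and 37.4 CPM in EpiLC, 42.1, 48.7 and 44.6 CPM in aEpiLC and 16.7, 28.3 and 29.6 CPM in pEpiLC, with no overlap between states. Slc1a3 rose by 0.32 ± 0.08 in aEpiLC (adjusted p = 0.00335), and in pEpiLC its log2 fold change was -0.52 ± 0.20 (adjusted p = 0.0674). Without pEpiLC replicate 1 it fell there by 0.29 (adjusted p = 0.00524). The call was also gained without pEpiLC replicate 3, with DESeq2, the likelihood ratio test or the replicate block, and in 1 fit of all libraries.

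**Figure D3:**
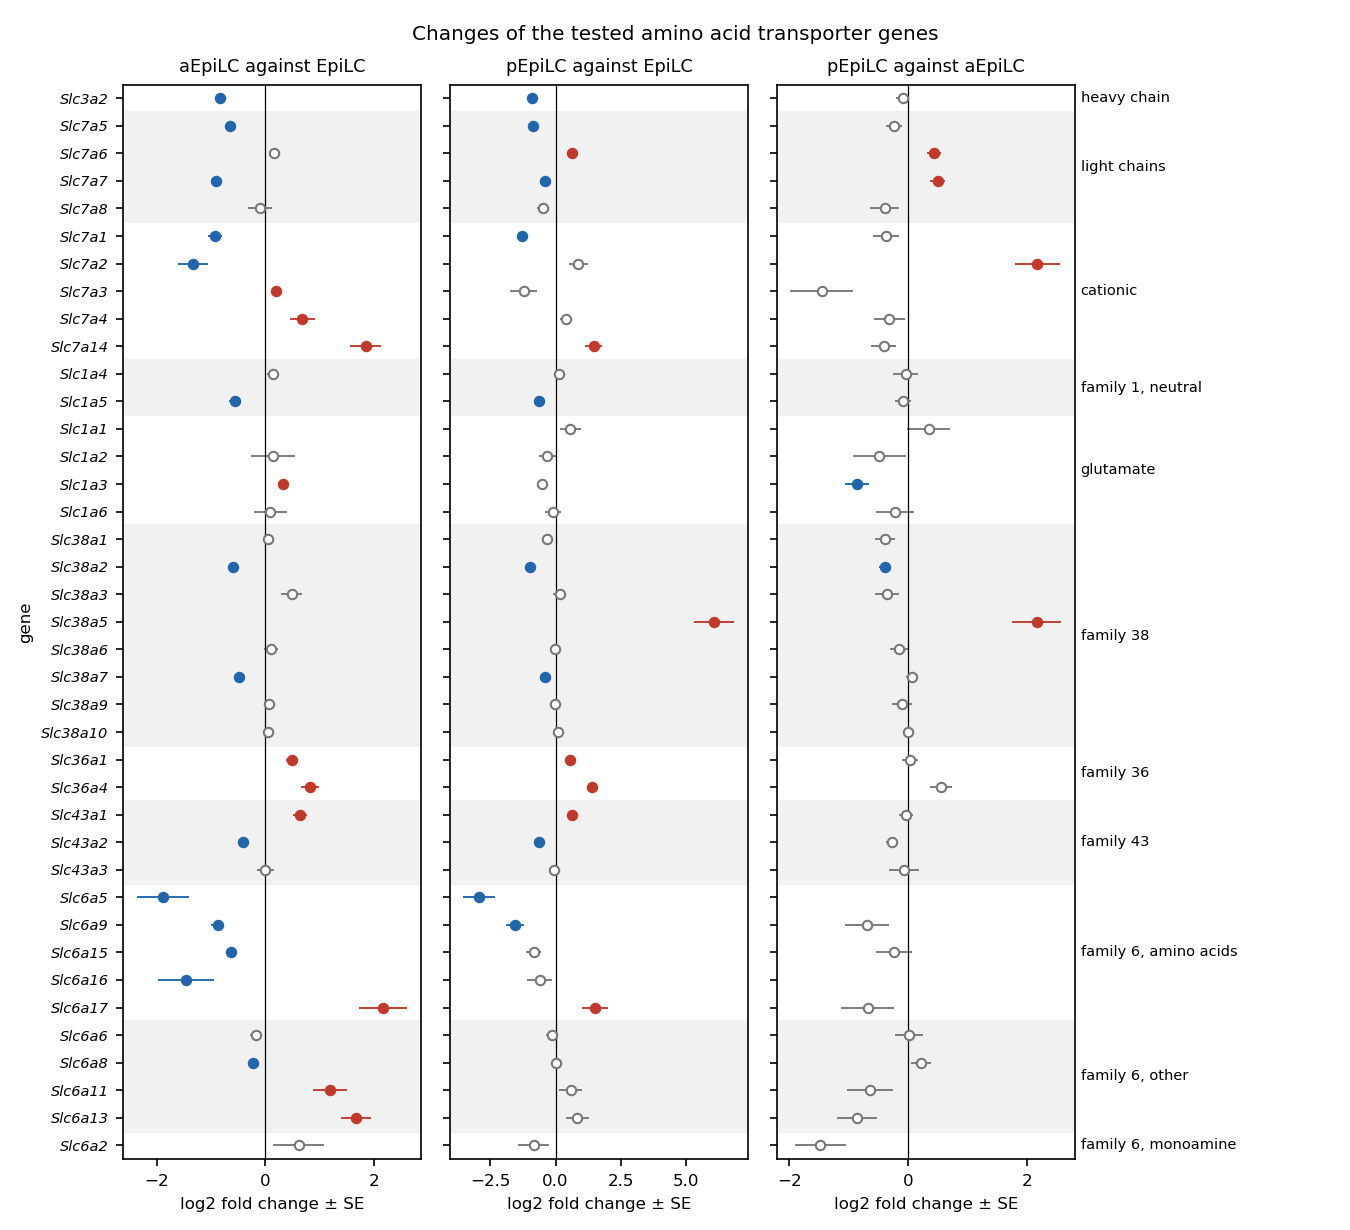
Log2 fold changes ± SE of 39 of the 40 tested transporter genes in the 3 comparisons, grouped by role, with red for genes that rose, blue for genes that fell (adjusted p below 0.05) and open grey circles for the others. The scale of the horizontal axis differs between panels. In the first panel 10 points are red and 14 blue, in the second 7 and 10, and in the third 4 and 2. The point of Slc38a5 in the second panel depends on a prior count.

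Between pEpiLC and aEpiLC, 7 transporters passed the test in the main fit, which has no replicate block. With the block, 6 were higher and 3 lower in pEpiLC, where 2464 of all 15198 genes tested were called. The values that follow are from the main fit unless stated. Slc7a2 was higher in pEpiLC by 2.18 ± 0.38 on the log2 scale (adjusted p = 0.0105). Slc38a5, which passed the filter through pEpiLC alone and so could enter only as higher, had a log2 fold change of 2.17 ± 0.41. The y+LAT genes Slc7a7 and Slc7a6 were higher by 0.50 ± 0.12 and 0.44 ± 0.12 (adjusted p = 0.0326 and 0.0464). Slc1a3 was lower by a log2 fold change of -0.86 ± 0.20 (adjusted p = 0.0278) and Slc38a2 by -0.39 ± 0.10 (adjusted p = 0.0378). In each of these 6 named genes the pEpiLC libraries lay on one side of all aEpiLC libraries. These calls rested on few libraries. Leaving out aEpiLC replicate 1 left only Slc7a2 called, and leaving out aEpiLC replicate 2 or 3 left 0, while 9 transporters had an unadjusted p below 0.05 in edgeR in each of these 3 fits, against 12 with all libraries. Over all genes, calls in these 3 fits numbered 1026, 774 and 947, against 2369 with all libraries. Without pEpiLC replicate 2, 3 calls including Slc7a6 and Slc7a7 were lost, and without pEpiLC replicate 3, Slc38a2 and Slc7a7. Without pEpiLC replicate 1 all 7 were called, and Slc7a3 was as well, which made 5 higher and 3 lower, where 8.81% of all genes were higher and 12.8% lower. Posterior markers differed between these states throughout, and their part in the differences of the transporters was not tested.

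**Figure D4:**
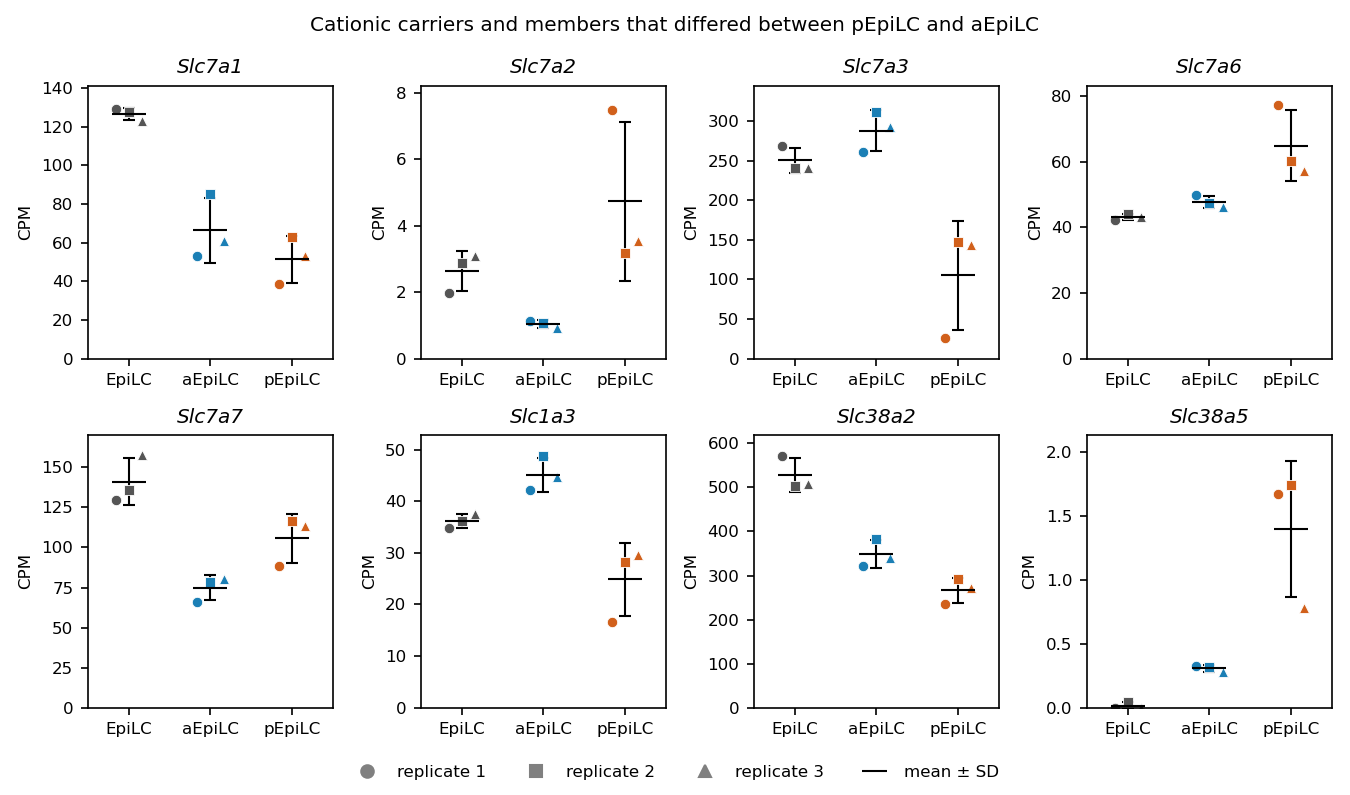
Levels in CPM of Slc7a3, Slc7a1 and the 6 transporters Slc7a2, Slc7a6, Slc7a7, Slc1a3, Slc38a2 and Slc38a5, with 1 symbol for each replicate library and black lines for the mean ± SD (n = 3). pEpiLC replicate 1, the orange circle, is far from replicates 2 and 3 for Slc7a3 (25.8 against 147 and 143 CPM) and Slc7a2 (7.49 against 3.17 and 3.54 CPM).

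Promoter sequences of the changed carriers were examined for 3 motifs chosen after the expression values were seen. These were the CARE element TGATGNAAN, bound by ATF4 with C/EBP partners, the E-box CACGTG, bound by factors such as MYC and TFEB, and ATCAAAG, a core of TCF/LEF sites that mediate Wnt signalling. RefSeq windows of GRCm38.p6 (250 bases before to 50 after the start, 300 in all) were matched for 37 of the 52 genes by symbol, and both strands were searched. A CARE match was found in 3.95% of all 32851 windows, an E-box in 7.15% and the TCF/LEF core in 3.73%. By gene, with all windows of a gene pooled, these shares were 4.496%, 8.09% and 4.29% of 27025 genes. Among the genes that fell in both later states, 8 of 10 had a window, and 1 each held a CARE match (Slc7a7), an E-box (Slc38a7) and a TCF/LEF core (Slc7a1). Among those that rose in both, 5 of 6 had a window, and 3 held an E-box (Slc36a1, Slc43a1 and Slc7a14). Of the other 24 transporters with a window, 1 held a CARE match, 5 an E-box and 4 a TCF/LEF core. A match is a run of letters, and binding was not measured. The stretches below run 5′ to 3′ on the strand of the gene, with the motif in capitals, and are shown because they are matches in genes that changed in the same direction in both later states. A second E-box of Slc36a1, at position -3 from the start, is not printed. The windows that hold the matches of Slc7a1 (148392766 to 148393065) and Slc43a1 (84840073 to 84840372) lie inside the annotated genes. The 5′ ends of these genes are at 148399904 and 84838850, so the matches belong to internal starts.
Slc7a7, CARE, chr14:54418067-54418095, minus strand: cgcttgggctTGATGAAAGgttcactggg
Slc7a7, CARE, chr14:54417927-54417952, minus strand: tagaagcTGATGCAACagcttccccg
Slc7a1, TCF/LEF core, chr5:148392847-148392873, minus strand: gttcccttcgATCAAAGagggagtggg
Slc38a7, E-box, chr8:95853510-95853535, minus strand: gattcaggctCACGTGttacttgagt
Slc36a1, E-box, chr11:55204299-55204324, plus strand: aatggagcggCACGTGacctgggcta
Slc43a1, E-box, chr2:84840249-84840274, plus strand: ggtctccctcCACGTGgcagccgtgg
Slc7a14, E-box, chr3:31310373-31310398, minus strand: ctgggttagcCACGTGattacaagga

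Genes that respond to amino acid shortage through GCN2 and ATF4, to which several of these carriers are known to belong, mostly fell in both later states. Of 10 such genes, 8 fell in aEpiLC, where 22.6% of all genes fell, and 10 in pEpiLC (9 without pEpiLC replicate 1), where 21.4% did (26.0% without that library). In pEpiLC against aEpiLC, 1 of the 10 was lower (2 without that library), where 9.30% of all genes were (12.8% without it). The summed level of the 10 genes was 2255 to 2424 CPM in EpiLC, 1192 to 1658 CPM in aEpiLC and 867 to 1545 CPM in pEpiLC. Asparagine synthetase, Asns, was at 319, 326 and 289 CPM in EpiLC, 142, 193 and 209 CPM in aEpiLC and 107, 182 and 177 CPM in pEpiLC. It fell by 0.78 ± 0.11 and 0.98 ± 0.18 (adjusted p = 7.08e-05 and 0.00464). Atf4 itself had a log2 fold change of -0.18 ± 0.11 in aEpiLC (adjusted p = 0.182) and fell by 0.57 ± 0.17 in pEpiLC (adjusted p = 0.0306), a call lost without EpiLC replicate 1, 2 or 3 or pEpiLC replicate 3. Atf3, the other gene that did not fall in aEpiLC, had a log2 fold change of 0.16 ± 0.13 there (adjusted p = 0.355), and its fall in pEpiLC (by 0.33 ± 0.12, adjusted p = 0.0490) was lost under 11 alternatives, among them DESeq2 and leaving out any EpiLC or pEpiLC library. The median log2 fold change of the 10 genes was -0.77 in aEpiLC and -0.90 in pEpiLC, beside 0.00 and 0.02 over all genes tested.

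The 25 genes of mTORC1 amino acid sensing went in both directions, with 6 rising and 8 falling in aEpiLC, 6 and 5 in pEpiLC (8 and 7 without pEpiLC replicate 1), and 3 and 3 between pEpiLC and aEpiLC (4 and 4 without that library). Of all genes tested, 24.0% rose and 22.6% fell in aEpiLC, and 22.8% rose and 21.4% fell in pEpiLC. Their median log2 fold change was 0.01 in aEpiLC and 0.10 in pEpiLC. Castor1, an arginine sensor, fell in aEpiLC by 1.39 ± 0.10 (adjusted p = 1.51e-07), while its paralogue Castor2 rose by 0.95 ± 0.11 (adjusted p = 1.23e-05). Of the leucine-sensing Sestrin family, Sesn3 rose there by 1.16 ± 0.11 (adjusted p = 3.07e-06) and Sesn1 had a log2 fold change of 0.10 ± 0.12 (adjusted p = 0.524). Sesn2 fell there by 0.22 ± 0.08 (adjusted p = 0.0293), a call lost without EpiLC replicate 1 or 3 or aEpiLC replicate 1 or 3. In pEpiLC, Castor1 was at 37.2, 21.8 and 18.8 CPM and Sesn3 at 67.2 to 73.0 CPM. In EpiLC they were at 36.9 to 37.2 CPM and 48.9 to 53.0 CPM. Of 20 measured amino acid and peptide carriers of other families, 14 were tested, of which 4 rose and 3 fell in aEpiLC, 6 rose and 2 fell in pEpiLC (8 and 3 without pEpiLC replicate 1), and 4 were higher and 1 lower in pEpiLC than in aEpiLC, with or without that library. Of all genes, 6.28% were higher and 9.30% lower in pEpiLC than in aEpiLC (8.81% and 12.8% without that library), and 26.6% rose and 26.0% fell in pEpiLC against EpiLC without it. The carriers' median log2 fold change was 0.02 in aEpiLC and 0.26 in pEpiLC. Slc16a10 (TAT1), a uniporter of aromatic amino acids, had 12.4, 13.4 and 10.6 CPM in EpiLC, 10.5, 9.04 and 10.3 CPM in aEpiLC and 56.7, 21.9 and 22.5 CPM in pEpiLC. It rose in pEpiLC by 1.50 ± 0.37 (adjusted p = 0.0141), a 2.82-fold higher level, with pEpiLC replicate 1 the highest library, and by 0.90, or 1.86-fold, without that library (adjusted p = 1.47e-05). The call with all libraries was lost without EpiLC replicate 1 or 3. The peptide carrier Slc15a2 (PEPT2) rose in both later states, by 1.26 ± 0.13 and 1.24 ± 0.23 (adjusted p = 3.55e-06 and 0.00462). Ctns, which exports cystine from lysosomes, rose in pEpiLC by 0.73 ± 0.13 (adjusted p = 0.00324). The 3 carriers that fell in aEpiLC were Slc25a12 (by 0.88 ± 0.14, adjusted p = 0.000217), Slc17a7 (by 1.04 ± 0.31, adjusted p = 0.0147) and Slc25a22 (by 0.21 ± 0.07, adjusted p = 0.0265). Slc17a6 was at 0.990 to 1.14 CPM in EpiLC and at 0.0477 to 0.174 CPM in pEpiLC, around the detection limit.

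The 12 transporters tested in no comparison were Slc1a7, Slc3a1, Slc6a3, Slc6a4, Slc6a7, Slc6a14, Slc6a19, Slc7a9, Slc7a10, Slc36a2, Slc38a8 and Slc38a11. Their highest value in any library lay between 0.180 and 0.563 CPM. With no filter on low counts, Slc6a4 passed the test in aEpiLC (adjusted p = 0.0441), where it was listed at 0 in all EpiLC libraries and at 0.0920 to 0.180 CPM in aEpiLC, around the level of 3 counts, and none of the other 11 passed in any comparison. Several are known as carriers of kidney, gut, brain or placenta.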

How the data were processed

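Per the labels and the study's methods, the authors aligned reads to GRCm38 (STAR 2.7.9a), quantified genes by RSEM 1.3.1 and deposited its expected counts, not normalised. The annotation, read cleaning and strandedness are not given in the sources used here. Expected counts of 23453 symbols were rounded to whole numbers. Each pair of states was fitted to its own 6 libraries with edgeR 4.0.16 (R 4.3.3), TMM, filterByExpr and the quasi-likelihood test, with p adjusted over all genes. Levels are CPM over 9 libraries, per kb of merged GENCODE vM21 exons where genes are compared. The fit was tested on simulated data. Alternatives were RLE size factors, DESeq2 1.42.0, the likelihood ratio test, other filters, 1 fit of all libraries, replicate blocks and leaving out each replicate.

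Values in every library are given for genes changed at least 2-fold with a mean of at least 5 CPM in a state, for Slc3a2, Slc7a5 and Slc1a5, and for the 5 highest genes per length. Slc7a2, Slc7a6, Slc38a5, Slc1a3, Slc6a11, Slc6a13, Slc6a15, Slc38a1, Slc16a10 and Asns fall outside this rule and were chosen after their values were seen. So were other genes named from the gene lists, among them Atf3, Atf4, Castor1, Castor2, Sesn1, Sesn2, Sesn3, Slc15a2, Ctns, Slc17a6, Slc17a7, Slc25a12 and Slc25a22. A result that names 1 of the 52 genes is not reported here, and that gene is counted but not drawn or listed. Members and lists were chosen with earlier results of these data known. Deviations of same-numbered pEpiLC and aEpiLC libraries from their state means correlated across genes at 0.215, 0.152 and 0.124, so replicate numbers were taken to pair these samples, and the labels give no source of the pairing. The main fit did not use this pairing. Deviations from a mean cancel out within a state, so these correlations are not independent of each other. For the comparisons with EpiLC the correlations lay between -0.07 and 0.04.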

Additional observations from a re-analysis of the deposited data

How the results depend on the processing

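Of 1493 refits of single transporters, 1394 kept their call or lack of one, 68 lost the call and 31 gained it. Of the 1394, 50 had the opposite sign, each without a call in either fit, and 0 refits with a call changed direction. In aEpiLC against EpiLC the counts of transporters that rose and fell stayed within 1.5 times 11 and 14 under every alternative run. With at least 10 counts in every library, fewer genes were tested, and 4 changed at least 2-fold in aEpiLC and 4 in pEpiLC in place of 8 each, and 5 rose in pEpiLC in place of 8. With the likelihood ratio test, 4 in place of 2 were lower in pEpiLC than in aEpiLC and 5 in place of 3 differed at least 2-fold. In 1 fit of all 9 libraries, Slc1a3, Slc6a8, Slc6a15, Slc6a16, Slc7a3 and Slc7a4 lost their call in aEpiLC, and Slc1a3, Slc6a15 and Slc7a3 gained one in pEpiLC. The cause of these shifts was not tested.

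Leaving out 1 replicate, 5 to 9 changed at least 2-fold in aEpiLC (5 without EpiLC replicate 1 or 3) and 5 to 9 rose in pEpiLC (5 without EpiLC replicate 3). Between pEpiLC and aEpiLC, 0 to 5 were higher, 0 to 3 lower and 0 to 4 differed at least 2-fold, with the lowest values without aEpiLC replicate 2 or 3.

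With the replicate block, 6 were higher and 3 lower in pEpiLC than in aEpiLC, and no call was lost there. In the comparisons with EpiLC the samples share only a number. The block gave 10 that rose and 14 that fell in aEpiLC and 7 and 12 in pEpiLC.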
